A study of Danio rerio with 24 samples.

Results

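DNA methylation was compared between early and late neural crest cells (NCCs) of zebrafish embryos, over 1388224 tiles of 500 bp. Tiles were laid from position 0 of each of the 25 chromosomes of danRer10, the zebrafish genome build of the deposited files. A tile was compared when at least 5 of its CpGs each had at least 5 reads in both NCC libraries, and its methylation level was the mean of the levels of those CpGs. These rules kept 1388224 of the 2576231 tiles with a CpG listed in either NCC library, and 15343391 of 22835301 CpGs. The rules used depth and CpG number, and not the levels themselves.

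The series holds 24 samples of whole-genome bisulfite sequencing (WGBS), ATAC-seq and mRNA-seq, made to follow NCCs as they become pigment cells, and 8 of them are WGBS samples. In WGBS, bisulfite turns cytosines that carry no methyl group into uracil, and the reads over a CpG are scored by the base that remains. Early NCCs were taken at 15 somites and late NCCs at 24 hpf (hours post-fertilization), in both cases as GFP-positive cells sorted from the transgenic line Tg(crestinA:EGFP). In this line a fragment of the crestin promoter, active in the neural crest, drives EGFP, so each library holds whatever cells carried the reporter at that stage. Melanophores and iridophores came from mlphaj120 larvae at 4 to 5 dpf (days post-fertilization) and are used only as later context, because cell type, age and strain change together between NCCs and pigment cells. The 4 NCC samples were 2 replicates per stage, and the authors combined the 2 replicates of each stage, so the files hold 1 NCC library per stage and no spread between replicates can be given.

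Methylation of CpGs in vertebrates is copied to the new DNA strand after replication by Dnmt1 with its partner Uhrf1, is set on unmethylated DNA by the Dnmt3 enzymes, and is removed through oxidation by Tet enzymes or by dilution when copying fails. Most of the zebrafish genome is methylated, while CpG-rich promoters stay unmethylated and distal regulatory elements often show lower levels in the cells that use them. NCCs arise at the border of the neural plate and migrate to give rise to pigment cells, peripheral neurons and glia, and parts of the facial skeleton.

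Summed over CpGs, the early NCC library held 521292949 reads and the late NCC library 683354245, with medians of 17 and 25 reads per CpG. A compared tile had a median of 9 CpGs, with a median of 238 reads in early and 325 in late NCCs. To show the ends of the scale, the 37967 tiles below 5% in both pigment cell libraries averaged 1.43% in early and 1.19% in late NCCs. The 98555 tiles at 95% or more in both pigment cell libraries averaged 96.5% in early and 96.0% in late NCCs. No danRer10 annotation was used here, so tiles are given by position and marker gene promoters could not be checked against the cell labels.

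The methylome fell slightly from early to late NCCs. The mean tile level was 86.1% in early and 85.1% in late NCCs, with medians of 92.1% and 91.1%. The mean change, late minus early, was -0.988 percentage points (95% interval from counting error, -0.993 to -0.984), and the median change was -0.79 points. That interval treats CpGs as independent although a read can cover more than 1, so it can be too narrow. Of the compared tiles, 865131 (62.3%) were lower and 520681 (37.5%) were higher in late NCCs. The central part of the distribution was narrow, from -2.75 points at the 25th percentile to 0.95 points at the 75th, while the 1st and 99th percentiles were -14.01 and 9.89 points. The mean level was 81.9% in melanophores and 81.5% in iridophores. Whether a shift of about 1 point is larger than the difference between replicates of a stage cannot be told from 1 combined library per stage.

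Large changes were few, and most of them were losses. A tile was called when a two-sided Fisher's exact test on its methylated and unmethylated reads gave a Benjamini-Hochberg adjusted p below 0.05 over all tiles and its level moved by at least 10 points. This called 18906 tiles lower in late NCCs, 1.36% of those compared, and 4221 tiles higher, 0.304%. Lower calls thus made up 81.75% of all called tiles, 4.48 for each higher call. The median change was -14.7 points in tiles called lower and 14.6 points in tiles called higher. A change of at least 20 points with the same test was found in 4528 tiles that fell and 966 that rose, one of at least 30 points in 1116 and 245, and one of at least 50 points in 29 and 13. The test compares the reads of 2 libraries, not 2 replicated stages, and a read that covers more than 1 CpG enters more than once, which can make p-values too small. With 1 CpG per tile, which counts each read once but leaves far fewer reads, 4741 tiles were called lower and 546 higher.

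Called tiles carried only part of the overall fall. Tiles called in either direction together held 18.1% of the summed net change, and the tiles not called still averaged a change of -0.82 points. The shares called differed between shallow and deep tiles, which also differ in CpG number. With tiles ranked by reads in the shallower library and split into 4 equal parts, in the lowest part (25 to 132 reads), 0.836% were called lower and 0.391% higher. In the deepest part (419 reads or more) 1.60% were called lower and 0.199% higher, while the mean change was close in both parts, at -0.939 and -0.922 points.

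Within called tiles most CpGs moved in the direction of the call, which the required mean change of at least 10 points favours by construction. The same shares were not computed for tiles not called. In tiles called lower, a median of 87.5% of CpGs were lower in late NCCs, and in 6140 tiles (32.5%) every CpG was. A single CpG held over 50% of the change in 1431 tiles called lower (7.57%). Tiles called higher were less uniform, with a median of 81.8% of CpGs moving up, all CpGs moving up in 791 tiles (18.7%) and a single CpG holding over 50% of the change in 514 tiles (12.2%).

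By early NCC level, which is part of the change itself, calls in each direction came from different starting levels. Of the tiles called lower, 15501 (82.0%) began at 80% or more in early NCCs, 3330 between 20% and 80%, and 75 below 20%. Of the tiles called higher, 3109 (73.7%) began between 20% and 80%, 676 at 80% or more and 436 below 20%. Among all tiles, 83.3% began at 80% or more, close to the 82.0% of tiles called lower. A tile at over 90% has no room to rise by 10 points, and one below 10% none to fall by 10 points. The contrast also depended on the library that set the classes. By late NCC level, 12488 of the tiles called lower lay between 20% and 80% and 5948 at 80% or more. For tiles called higher these counts were 1874 and 2267. Intermediate tiles, from 20% to 80% in early NCCs, were called 1.84% lower and 1.72% higher. This near balance was not kept with other bins, since tiles of 20% to 80% by late NCC level were called 6.11% lower and 0.917% higher, and those of 20% to 80% by pigment cell level 4.24% lower and 0.757% higher. Highly methylated tiles were called lower in 1.34% of cases and higher in 0.0584%.

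Mean change by early NCC level ran from a small rise in low and intermediate tiles to a fall in highly methylated tiles. It was 0.16 points in tiles at 0 to 10%, 1.04 points at 30 to 40%, -0.53 points at 80 to 90% and -1.56 points at 90 to 100%. Medians in the low bins were nearer to no change, at -0.0018 points at 0 to 10%, where 50.1% of tiles were lower, and 0.26 points at 30 to 40%. These bins share the counting error of the early library with the change itself. With bins set by the pigment cell levels, which share no reads with either NCC library, the mean change was negative in every bin. Over the classes below 20%, 20 to 80% and 80% or more, the mean change was 0.22, 0.35 and -1.25 points with bins by early NCC level, and -1.08, -1.75 and -0.75 points with bins by the pigment cell level. The rise in low and intermediate tiles therefore depended on which library set the bin.

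**Figure D1:**
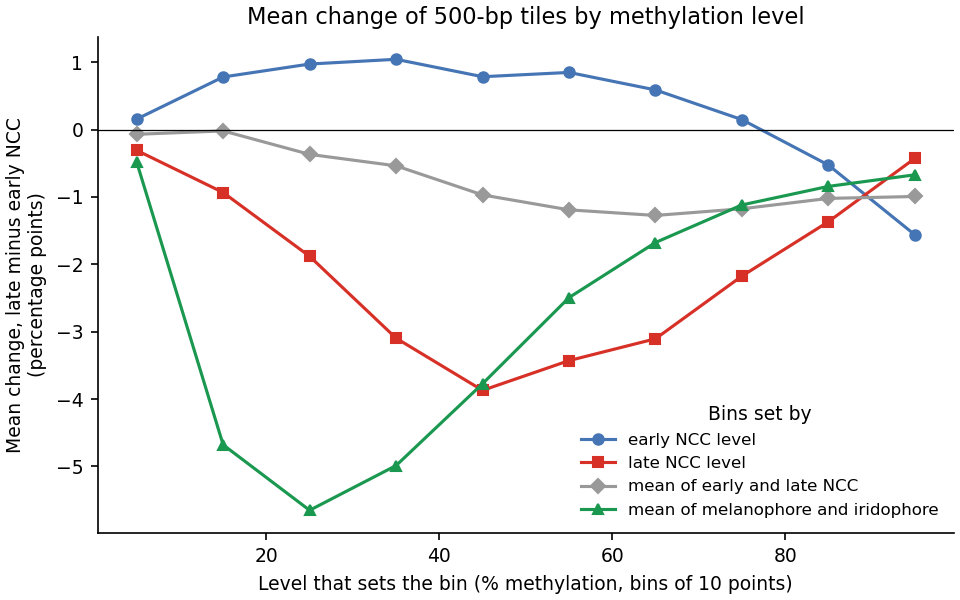
Mean change in methylation from early to late NCCs (percentage points, y axis) of 500-bp tiles in bins of 10 points of level (x axis), with 1 line for each way of setting the bins. Only the bins set by early NCC level lie above 0 at low and intermediate levels, and the bins set by the pigment cell level reach -5.65 points at 20 to 30%.

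The most negative mean changes were in tiles of 10 to 50% in pigment cells, and not in the lowest ones. The 44097 tiles at 0 to 10% in pigment cells averaged 3.001% in early and 2.52% in late NCCs, a mean change of -0.48 points, and 1.32% of them were called lower. The 7980 tiles with a mean pigment cell level of 20 to 30% averaged 56.0% in early and 50.3% in late NCCs, a mean change of -5.65 points. The 10349 tiles at 30 to 40% in pigment cells went from 64.9% to 59.9%, a mean change of -4.99 points. Of the 7980 tiles, 23.7% were called lower, against 1.36% of all tiles. The 560729 tiles at 90 to 100% in pigment cells changed by -0.67 points on average, and 0.132% of them were called lower. These are descriptions of pooled libraries, and the pigment cells differ from NCCs in strain as well as in cell type.

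The mean change was more negative in CpG-poor than in CpG-dense tiles. The mean change was -1.20 points in tiles with 5 or 6 compared CpGs, -1.11 with 7 to 9, -0.96 with 10 to 14, -0.71 with 15 to 24 and -0.30 with 25 or more. The share called lower was 1.29% with 5 or 6 CpGs, near 1.50% with 7 to 14 and 0.502% with 25 or more, although dense tiles hold more reads. The share called higher stayed between 0.295% and 0.313% in all 5 density classes. The same order of mean changes held among tiles at 80% or more in early NCCs, from -1.64 to -0.40 points, and among tiles at 80% or more in pigment cells, from -0.98 to -0.29 points. The order did not hold from 20% to 80%. By early NCC level the mean changes there were 0.38, 0.33, 0.27, 0.42 and 0.90 points from the least to the most dense tiles. By pigment cell level they were -1.66, -1.79, -1.87, -1.755 and -0.61 points. Below 20% the order depended on the bins. It ran from 0.67 to -0.09 points by early NCC level and from -2.02 to -0.19 points by pigment cell level. CpG density and starting level are linked, since dense tiles include the unmethylated ones.

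**Figure D2:**
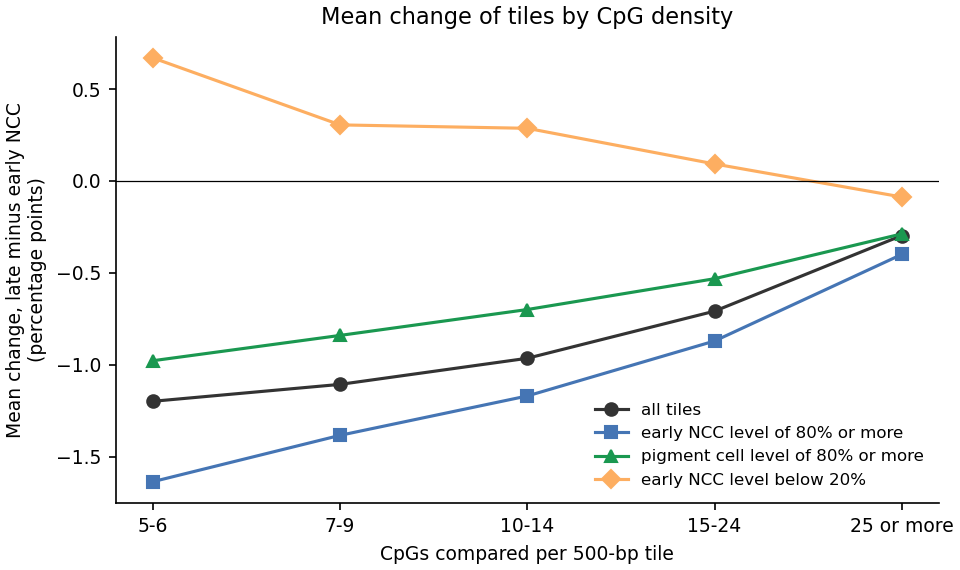
Mean change from early to late NCCs (percentage points, y axis) by the number of compared CpGs per 500-bp tile (x axis), for all tiles and for tiles of a given starting level. The line for all tiles climbs from -1.20 to -0.30 points as density rises, and the line for tiles below 20% in early NCCs runs the other way, from 0.67 to -0.09 points. Classes set by early NCC level share the counting error of that library with the change.

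Intermediate tiles showed the opposite pattern for calls. Among tiles at 20% to 80% in early NCCs, the share called lower rose from 1.10% with 5 or 6 CpGs to 4.58% with 25 or more, and the share called higher rose from 1.07% to 5.77%. In this class the densest 2618 tiles were therefore called in either direction more often than the rest, with 120 called lower and 151 higher. The balance depended on the bins. Among tiles at 20% to 80% by pigment cell level, 2.89% were called lower with 5 or 6 CpGs, 6.20% with 15 to 24 and 5.35% with 25 or more. The share called higher there rose from 0.499% with 5 or 6 CpGs to 3.36% with 25 or more. Deeper tiles hold more CpGs, with a mean of 6.55 CpGs in the shallowest of the 4 depth parts and 18.0 in the deepest, and the part of depth in this increase was not tested.

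The mean change was negative on all 25 chromosomes. It ran from -0.861 points on chromosome 3 to -1.11 points on chromosomes 15 and 23. Calls were spread less evenly than means. The share of tiles called lower was lowest on chromosome 4 (0.944%) and highest on chromosomes 15 (1.999%) and 12 (1.84%). Chromosomes 12 and 15 also had the highest shares called higher, 0.750% and 0.553%, against 0.135% on chromosome 10, the lowest. More tiles thus moved in both directions on these chromosomes, while the mean change on chromosome 12, -0.89 points, was among the smaller ones. Without both chromosomes 16876 tiles were called lower and 3526 higher, partly because fewer tiles were left. Chromosome 12 held 3.61% of compared tiles, 4.88% of lower calls and 8.91% of higher calls. For chromosome 15 these shares were 3.66%, 5.37% and 6.66%.

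**Figure D3:**
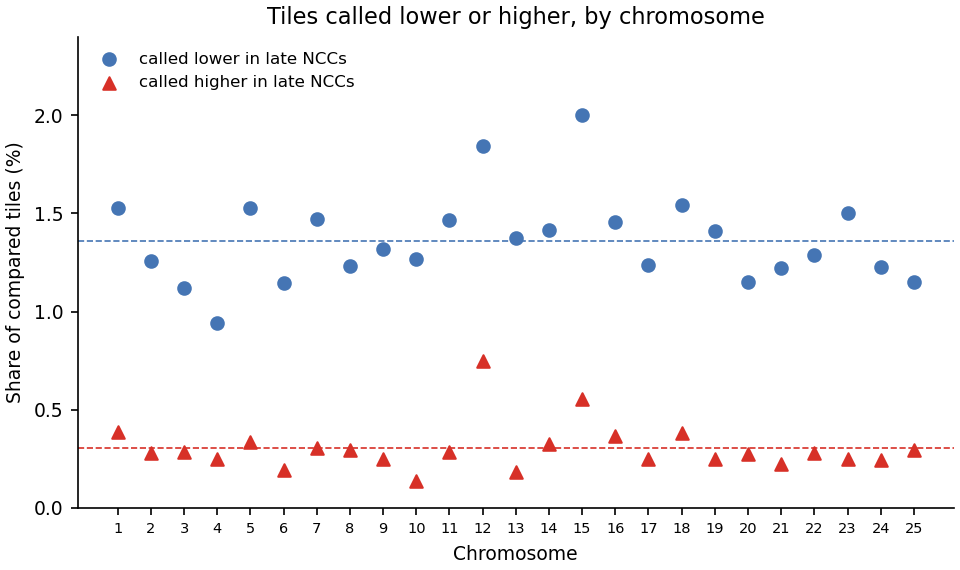
Share of compared tiles called lower (circles) or higher (triangles) in late NCCs (percent, y axis) on each chromosome (x axis), with dashed lines at the shares over all tiles, 1.36% and 0.304%. Chromosomes 12 and 15 lie farthest above the line in both directions, some others lie above both lines by less, and chromosome 4 has the lowest share called lower, 0.944%.

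The stretches with the highest shares called lower lay on chromosomes 12 and 15, but the share called outside them was not computed. Over 1350 windows of 1 Mb with at least 200 compared tiles, the median share called lower was 1.16% and the median share called higher 0.206%, and the mean change was negative in all but 11 windows. The highest share called lower was 7.37%, at chr12:34000001-35000000, where 84 of 1140 tiles were called lower and 8 higher. Next came 6.83% at chr15:40000001-41000000, with a mean change of -3.25 points, and 6.39% at chr15:41000001-42000000. Of all compared tiles in these 3 windows, 71.5%, 77.2% and 73.7% were lower in late NCCs, against 62.3% of all tiles.

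The 3 windows with the highest shares called higher also lay on chromosomes 12 and 15. The highest was 3.92%, at chr15:43000001-44000000, where 43 tiles were called higher and 30 lower. At chr12:39000001-40000000 24 tiles were called higher and 33 lower, so both directions were frequent. By contrast, at chr12:19000001-20000000 28 tiles were called higher and 1 lower, and the mean change was 1.41 points, the highest of all windows. Of the 20 windows with the highest share called higher, 8 lay on chromosome 12 and 2 on chromosome 15, which hold 50 and 48 of the windows. Of the 20 windows with the highest share called lower, 4 lay on chromosome 12 and 4 on chromosome 15.

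Most calls stood alone. The changes of adjacent tiles had a Pearson r of 0.136 over 883338 pairs, which share both libraries, and r was 0.047 for tiles 2 apart and 0.045 for tiles 10 apart with no gap between. A read can also cover CpGs in both of 2 adjacent tiles, and the part of such reads in the values for adjacent tiles was not tested. Of 10753 tiles called lower whose next tile was compared, that next tile was also called lower in 1803 cases (16.8%), against 1.36% of all tiles, and was called higher in 31. Of 2480 tiles called higher with a compared next tile, the next was also called higher in 284 cases (11.5%) and lower in 28.

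A run was a stretch of adjacent tiles called in the same direction, which also ended where the next tile was not compared. The tiles called lower formed 17103 runs, of which 15457 were single tiles, 1516 held 2 tiles, 110 held 3 and 20 held 4 or more. The tiles called higher formed 3937 runs, of which 3684 were single tiles, 230 held 2 tiles, 17 held 3 and 6 held 4 or more. Runs of 2 or more tiles held 18.2% of the tiles called lower and 12.7% of those called higher. Longer runs fell further, with a median change of -14.3 points for single tiles called lower, -17.3 points for runs of 2 and -19.1 points for runs of 4 or more. Single tiles called higher rose by a median of 14.2 points and runs of 2 by 17.8 points. With a minimum change of 20 points in place of 10, 327 runs of 2 or more tiles were found in both directions together, against 1899 with 10 points.

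The longest run called lower, at chr7:21454501-21458000, held 7 tiles and 63 CpGs. Its mean level was 91.4% in early and 72.1% in late NCCs, against 24.9% for melanophores and 23.3% for iridophores. The falls of its 7 tiles, each at least 10 points by the rule for calls, ran from 11.0 to 31.6 points. The compared tiles directly beyond each end were flat across the NCC stages, at 97.2% and 98.4% on one side and 93.2% and 94.6% on the other, so that the fall had sharp edges. Levels in both pigment cell libraries were lower again within these edges, down to 3.50% in melanophores and 0.883% in iridophores in the second tile.

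Another run, at chr14:41803001-41806000, held 6 tiles and 130 CpGs and moved from a partly methylated to a nearly unmethylated state. Its mean level was 31.7% in early and 6.08% in late NCCs, against 9.97% for melanophores and 11.8% for iridophores. The fall was 12.3 points in the first tile and between 25.8 and 34.4 points in the others. On this mean level late NCCs were the lowest of the 4 libraries, and the tile just before the run was near 1% in all of them.

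At chr19:8573001-8575500 a run of 5 tiles followed the pattern of the chromosome 7 run at smaller size. Its mean level was 90.7% in early and 75.02% in late NCCs, against 52.7% for melanophores and 57.4% for iridophores. The other named runs called lower were not lower still in pigment cells. At chr18:8292001-8294500 a run of 5 tiles had a mean level of 54.4% in early and 35.9% in late NCCs, against 61.7% for melanophores and 59.3% for iridophores. At chr24:20973501-20975500 a run of 4 tiles had 44.3% in early and 10.5% in late NCCs, against 45.7% for melanophores and 48.8% for iridophores. In both of these the late NCC library was the lowest of the 4 in every tile. On chromosome 24 the mean levels of the other 3 lay close together. On chromosome 18 they were less close. In its first tile early NCCs were at 40.9%, between late NCCs (24.9%) and the pigment cells (56.4% and 57.5%).

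Runs called higher also fell into more than 1 pattern. At chr23:28765001-28767500 a run of 5 tiles had a mean level of 19.6% in early NCCs, 52.9% in late NCCs and 24.3% in melanophores, and in iridophores the 4 tiles with a value lay between 27.4% and 41.4%. At chr22:16240001-16242500 a run of 5 tiles had 44.9% in early and 78.7% in late NCCs, against 56.9% for melanophores and 60.8% for iridophores. In the former, late NCCs were above the other libraries in every tile, and in the latter the mean levels of both pigment libraries lay between those of the NCC stages.

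The other named runs called higher held 4 tiles each. At chr12:46011501-46013500 the level was 42.7% in early and 67.8% in late NCCs, against 49.2% for melanophores and 46.8% for iridophores. At chr9:22696501-22698500 it was 62.7% in early and 86.2% in late NCCs, against 62.9% for melanophores and 66.9% for iridophores. In both, pigment cells were closer to early than to late NCCs. Of the 5 named runs called higher, only that at chr16:671501-673500 was higher again in pigment cells, from 44.5% in early and 62.0% in late NCCs to 81.2% for melanophores and 80.7% for iridophores.

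**Figure D4:**
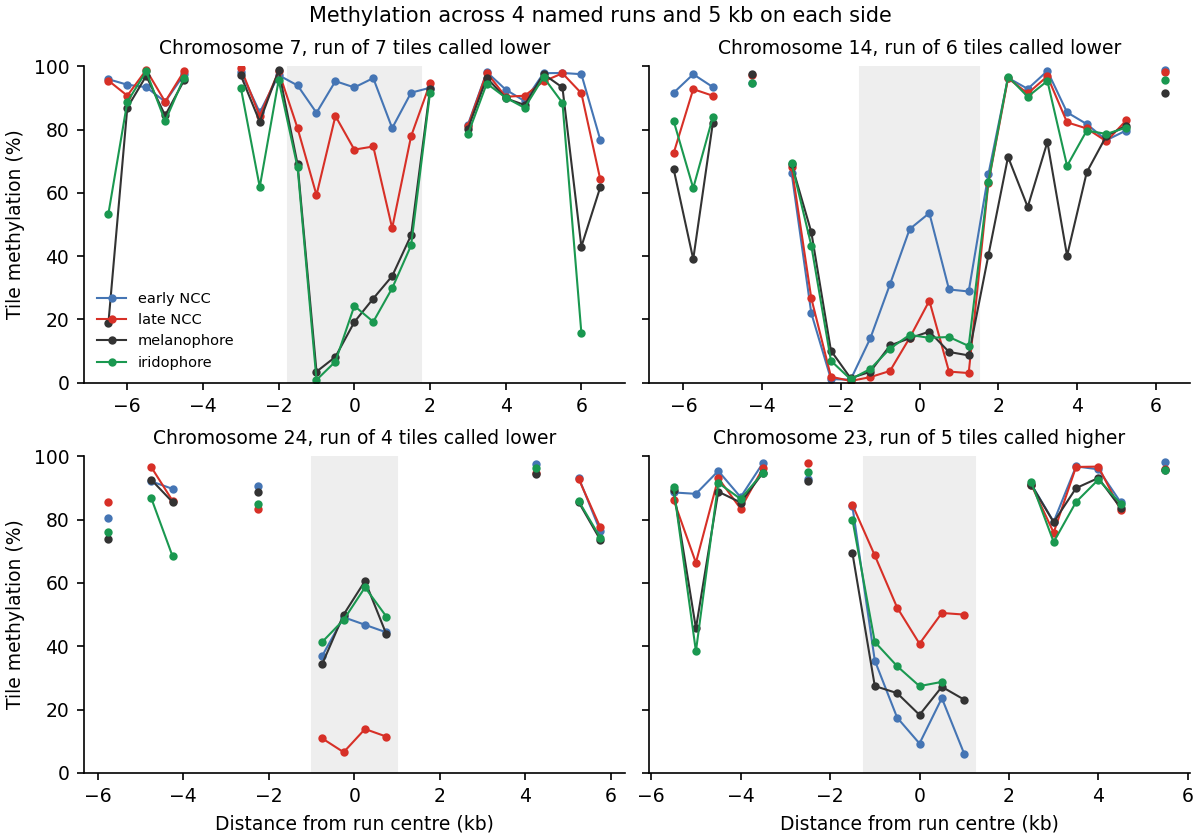
Tile methylation (percent, y axis) in the 4 libraries by distance from the run's centre (kb, x axis) for 4 named runs, with the run shaded and lines broken where a tile was not compared. On chromosomes 24 and 23 most tiles outside the runs are close in all libraries and late NCCs stand apart inside the runs, while on chromosome 7 late NCCs lie between early NCCs and both pigment cells.

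Single tiles with the largest falls started from intermediate or high levels, which falls of this size require. The 10 called tiles with the largest fall, among those with at least 10 CpGs and no more than 3 times the median reads per CpG, had early NCC levels of 58.6% to 95.2% and late NCC levels of 6.34% to 42.3%. The largest was at chr1:3464001-3464500, with 14 CpGs, at 67.3% in early NCCs over 210 reads and 6.34% in late NCCs over 390 reads. Its share of methylated reads was 67.1% (Wilson 95% interval, 60.5 to 73.1) in early and 5.64% (3.75 to 8.39) in late NCCs. These intervals sum reads over the 14 CpGs, where a read can enter more than once, and with 1 CpG per tile the tile was not called. Melanophores (26.8%) and iridophores (24.9%) lay between the NCC stages.

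Other tiles in this set continued downward. The tile at chr15:43780001-43780500 was at 89.2% in early and 34.5% in late NCCs, against 7.04% for melanophores and 6.20% for iridophores (change -54.7 points, Fisher's exact test, adjusted p = 1.10e-60). The tile at chr11:6118001-6118500 was at 77.8% in early and 27.9% in late NCCs, against 8.36% for melanophores and 5.69% for iridophores (change -49.9 points, Fisher's exact test, adjusted p = 2.16e-64). Both were thus nearly unmethylated in pigment cells. The tile at chr5:65245501-65246000, the most deeply read of the 10 with 1093 and 1531 reads, went from 84.6% to 28.9% and was at 20.4% in melanophores and 22.4% in iridophores. By contrast, the tile at chr1:21736501-21737000 was at 73.5% in early and 22.2% in late NCCs, against 66.2% for melanophores and 62.0% for iridophores, so both pigment libraries lay between the NCC stages and nearer to early NCCs.

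Single tiles with the largest rises started at 45.04% or lower, and rises of this size require a low or intermediate start. The 10 called tiles with the largest rise, by the same rule, had early NCC levels from 1.41% up and late NCC levels of 65.3% to 92.0%. At chr9:52143501-52144000 the level was 1.41% in early NCCs over 158 reads and 71.1% in late NCCs over 143 reads, with 42.2% in melanophores and 49.1% in iridophores. Its share of methylated reads was 1.27% (Wilson 95% interval, 0.348 to 4.50) in early and 71.3% (63.4 to 78.1) in late NCCs. The change of 69.7 points was the largest by this rule, and the tile lost its call in the test on 1 CpG, as did that at chr20:8992501-8993000.

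Of these 10 tiles, 2 lay on chromosome 12 and 3 on chromosome 22. These chromosomes held 3.61% and 3.12% of compared tiles, and 8.91% and 2.87% of tiles called higher. In the test on 1 CpG the 2 tiles on chromosome 12 kept their calls and the 3 on chromosome 22 lost them. At chr12:42268501-42269000 the level was 12.5% in early and 65.3% in late NCCs, against 21.1% for melanophores and 15.7% for iridophores (change 52.8 points, Fisher's exact test, adjusted p = 1.23e-56). At chr12:38240501-38241000 it was 27.4% in early and 77.6% in late NCCs, against 39.2% for melanophores and 29.8% for iridophores. Both were high in the late NCC library alone. At chr20:8992501-8993000 the rise persisted, from 44.1% in early and 88.7% in late NCCs to 89.2% for melanophores and 90.8% for iridophores.

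Called tiles were then read in the pigment cells, where nearly 1 in 2 of the tiles called lower was lower again. Of the tiles called lower, 18699 had values in both pigment libraries, with medians of 91.3% in early and 74.97% in late NCCs, against 55.4% for melanophores and 57.3% for iridophores. In 8738 of them (46.7%) both pigment libraries were at least 10 points below late NCCs, against 5.99% of all tiles. In 5137 (27.5%, against 83.45% of all tiles) both were within 10 points of late NCCs, in 1569 (8.39%, against 0.791%) both were at least 10 points above them, and the remaining 3255 were split. Both pigment libraries were within 10 points of early NCCs in 15.6% of the tiles called lower.

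Of the tiles called higher, 4103 had values in both pigment libraries, with medians of 65.2% in early and 82.1% in late NCCs, against 74.7% for melanophores and 74.5% for iridophores. In 2052 of them (50.0%) both pigment libraries were within 10 points of late NCCs, against 83.45% of all tiles. In 238 (5.80%) both were at least 10 points above, against 0.791% of all tiles, and in 971 (23.7%) both were at least 10 points below, against 5.995%. Both were within 10 points of early NCCs in 37.3% of the tiles called higher and 15.6% of those called lower, against 80.6% of all tiles. Above the 75th percentile of tiles called higher, late NCCs were at 90.7% or more, where a further rise of 10 points is not possible. Called tiles were selected on the NCC levels, and the part of that selection in their distance from the pigment values was not tested. Tests of the NCC to pigment cell step were not run here.

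**Figure D5:**
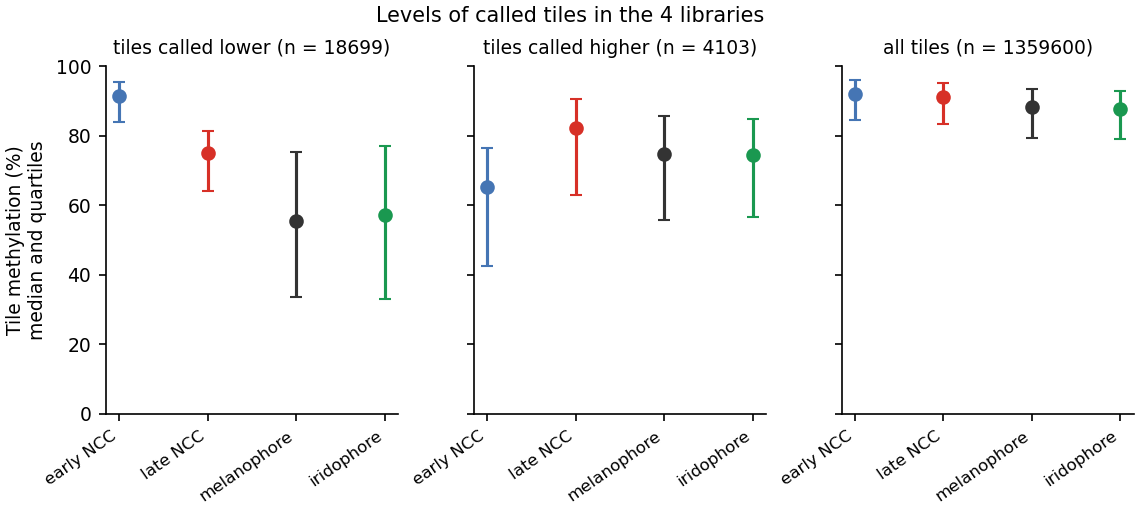
Tile methylation (percent, y axis) in the 4 libraries (x axis) for tiles called lower, tiles called higher and all tiles with values in both pigment libraries, with points at the median and bars from the 25th to the 75th percentile over tiles. The median of tiles called lower goes from 91.3% to 74.97% across the NCC stages and lies at 55.4% and 57.3% in the pigment cells.

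Genes of small-molecule metabolism give a view of the NCC stages at known places. The study listed 48 regions near 20 such genes, some of them in purine metabolism, which supplies the guanine crystals of iridophores. That list was drawn up for changes from late NCCs to iridophores, and it was examined here after the genome-wide values were seen. The late NCC and pigment cell levels of these regions, and changes that use them, are thus only a description. In the 36 regions with at least 5 compared CpGs, the median level was 93.8% in early and 90.3% in late NCCs, against 45.2% for melanophores and 18.6% for iridophores. Of these regions 25 were lower and 11 higher in late than in early NCCs, while 62.3% of all compared tiles were lower. The 61 compared tiles over the 48 regions had a median change of -0.66 points, against -0.79 points for all tiles. Among these 61 tiles, 1 was called lower (1.64%, against 1.36% of all tiles) and 0 higher.

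The called tile lies over a region near adka, which encodes adenosine kinase, the enzyme that phosphorylates adenosine to AMP. That region, chr13:25040578-25040882, held 12 CpGs and was at 85.5% in early and 75.3% in late NCCs, against 14.6% for melanophores and 10.6% for iridophores. A region near hprt1l, whose name marks it as a relative of the purine salvage enzyme hypoxanthine phosphoribosyltransferase, was at 94.9% in early and 85.8% in late NCCs, against 34.1% for melanophores and 41.6% for iridophores. The 3 regions near asns, which encodes asparagine synthetase, were at 94.0% to 97.1% in early and 89.8% to 91.2% in late NCCs. In these 4 regions the change ran from -9.05 to -2.80 points, and none of their tiles was called. The other listed regions near hprt1l changed by -1.98 points from 96.5% in early NCCs and by -0.335 points from 1.04%, where almost no fall is possible. Those near adka changed by -1.14, 0.32 and -1.34 points. In most of the listed regions the NCC stages were close together and high, and the pigment cells were lower. The list was drawn from changes between late NCCs and iridophores, so this contrast is not a finding about these genes.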

How the data were processed

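DNA was measured by WGBS with paired-end reads of 75 bp. The authors used Cutadapt for trimming, Bismark for mapping to danRer10 and for calling methylation, and Picard for marking duplicates, and combined 2 replicates per cell type. Tool versions are not given in the sources used here. The deposited methylation level is a fraction from 0 to 1, and the deposited read count per CpG is raw coverage. Level times reads lay within 0.0044 of a whole number in all libraries, which was taken as the methylated reads. Levels are printed as percent. Pigment levels used the same CpGs, with at least 5 reads and 5 CpGs per tile. Fisher's exact tests with Benjamini-Hochberg adjustment used Python 3.11.15, NumPy 2.4.6 and numba 0.67.0, checked on simulated data. The simulated reads were independent within a tile. That check could not show the effect of reads that cover more than 1 CpG or of differences between replicates. Wilson intervals at 95% cover counting error only.

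The tile rule, lists and tests were chosen with earlier results of these data known. Named tiles were the 10 called tiles with the largest fall and the 10 with the largest rise among those with at least 10 CpGs and no more than 3 times the median reads per CpG, plus the 5 longest runs in each direction. The windows and gene regions were chosen after their values were seen. Alternatives covered tile size and offset, read and CpG minimums, weighting, the test, the minimum change and the chromosomes. The list of small-molecule genes came from the study, with coordinates as it gives them. ATAC-seq and mRNA-seq samples were not analysed here.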

Additional observations from a re-analysis of the deposited data

How the results depend on the processing

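No paired analysis was possible because the replicates of each stage were combined in the deposited files, and for the same reason no replicate could be left out. The mean tile change stayed negative under all alternatives, from -1.052 (at least 3 CpGs) to -0.82 points (at least 10 CpGs), with -0.87 for 250-bp tiles, -1.048 for 1000-bp tiles, -1.004 for at least 20 reads and -0.995 weighted by reads. Tiles called lower numbered 12522 in 1000-bp tiles, 8981 with at least 10 CpGs, 4741 with 1 CpG per tile, 4528 and 1116 at 20 and 30 points, and 32976 with no test. Tiles called higher numbered 2568, 2159, 546, 966 and 245, and 13464 under the same settings, 2234 with at least 20 reads and 6606 weighted by reads. As shares of tiles compared, lower calls were 1.36% and higher calls 0.304% in the main setting. Lower calls were 1.215% in 1000-bp tiles, 1.342% with at least 10 CpGs and 1.792% with at least 20 reads. Higher calls were 0.2491%, 0.3225% and 0.2955% in these settings. Weighted by reads the shares were 1.642% lower and 0.4759% higher. Lower calls made up 81.75% of called tiles, and 71.0% with no test. Runs of 2 or more tiles numbered 327 at 20 points. The settings that test fewer tiles or reads give fewer calls by construction, and the cause of the other differences was not tested.

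Mean changes by starting level turned on the bins. Below 20% the mean change was -0.37 with bins by late NCC level, -0.064 by the mean of both stages and -1.08 by the pigment cell level. From 20% to 80% it was -2.53, -1.16 and -1.75 points, and at 80% or more -0.74, -1.002 and -0.75 points. The difference between the least and most dense tiles was -0.90 points over all tiles, -0.69 within 80% or more in pigment cells, 0.76 below 20% in early NCCs, -0.52 from 20% to 80% and -1.24 at 80% or more. From 20% to 80% in early NCCs the mean change was a rise in every density class, without a steady order. Below 20% in pigment cells, the least dense tiles changed by -2.02 points and the most dense by -0.19 points. The sign of the difference below 20% thus turned on the bins. Of the 20 named tiles, 12 lost the call with 1 CpG per tile. With at least 10 or at least 20 reads per CpG, some named tiles were no longer compared, in 19 cases over these settings. The tile with the largest rise, at chr9:52143501-52144000, was lost in both. Most other settings could not change the tiles still compared, which were picked for a large change, at least 10 CpGs and ordinary coverage. Leaving out chromosomes 12 and 15, an alternative added after seeing the data, changed no count by over 1.5 times. For called tiles it could not, since chromosome 12 held 4.88% of lower and 8.91% of higher calls and chromosome 15 held 5.37% and 6.66%.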
